A study of Homo sapiens with 6 samples.

Results

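The mitochondrial ribosomal protein genes were described across 6 human RNA-seq libraries labelled as SKM-1 cells. The members were all genes of the deposited matrix whose symbol was MRPL or MRPS followed by a number and at most 1 letter from A to C. The rule used names and not values, but the family was chosen with earlier results of these data known. This rule gave 78 genes of 31142, each listed under 1 identifier, and all 78 passed the filter used for testing, a mean of at least 1 FPKM over the 6 libraries, as did 10942 genes of the table. FPKM are fragment counts divided by transcript length and by the number of mapped fragments of the library, so they can be compared between genes as levels per length.

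SKM-1 is a line of acute myeloid leukaemia that followed a myelodysplastic syndrome. The study transduced such cells with lentivirus carrying FLAG-tagged U2AF1, a subunit of the splicing factor that reads the 3′ splice site. The labels put 3 libraries in the U2AF1 S34F mutant group and 3 in the U2AF1 wild-type (WT) group; total RNA was taken after 96 h. The sources differ on what the WT cells carried. The study's results section says that its RNA-seq set expression of wild-type U2AF1 against the mutant, and the sample titles name U2AF1-WT. The titles also start with NC, the study's name for negative controls, which its methods describe as untransfected. Its RNA-seq methods speak of a vehicle control. Both groups were labelled with the same line. Whether both carried the vector and an added copy of U2AF1 cannot be settled from these sources. Effects of the mutation, the vector and added U2AF1 therefore cannot be told apart. The study describes 3 pairs of independent RNA samples, and its methods speak of triplicates. Neither it nor the labels say whether the 3 libraries of a group came from separate cultures, so p-values measure only the spread between these libraries.

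The mitochondrial ribosome translates the few mRNAs of the mitochondrial genome, all of which encode subunits of oxidative phosphorylation. Its ribosomal RNAs come from the mitochondrial genome, whereas all its proteins are encoded in the nucleus, made in the cytosol and imported. Some of these proteins descend from bacterial ribosomal proteins, and others are found only in mitochondria.

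The FPKM of U2AF1 itself were 9.24, 9.48 and 9.18 with S34F and 8.67, 8.70 and 7.65 with WT, and those of its near-identical copy U2AF1L5 ranged from 9.18 to 10.04. These values carry no information on which allele was read. Approximate depth, inferred from the steps between low values of single-exon genes, lay between 21.1 and 26.6 M fragments per library. All 12 erythroid markers examined were at a mean of at least 1 FPKM with a median of 551, and the globin gene HBE1 was the highest at 5461. Only 3 of 12 monocytic markers reached that mean (LYZ, ITGAM and CD33), and MPO, S100A8 and FCN1 were at or near 0. The labels name SKM-1, and the study also transduced K562, a line of chronic myelogenous leukaemia. Which line these libraries came from was not tested. S34F replicate 3 stood apart from the other S34F libraries, so the results that rest on it are given with and without it. It correlated at 0.953 and 0.954 with S34F replicates 1 and 2, and at 0.975 with WT replicate 3. WT replicate 3 in turn correlated at 0.976 and 0.975 with WT replicates 1 and 2, which reached 0.986 with each other. Leaving out S34F replicate 3 alone therefore keeps a WT library that also differed from its group.

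Of the 78 genes, 51 encode proteins of the large subunit and 26 of the small subunit, counting MRPS30 and MRPS18A with the large subunit, where they belong despite their names. MRPS36 was left without a class and is counted as a member by its symbol alone. Across the members the mean FPKM over 6 libraries spanned 128-fold. The 5 highest were MRPL41 at 193.5 FPKM, MRPL14 at 146.9, MRPS18B at 135.8, MRPL12 at 123.2 and MRPS34 at 113.3. MRPL12 forms the flexible stalk that recruits translation factors, and MRPL14 lies on the face of the large subunit that meets the small one. Together, these 5 genes took between 22.4% and 26.9% of the summed FPKM of the members in a library.

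At the other end were MRPL42 at 1.51 FPKM, MRPL19 at 2.41, MRPL1 at 4.84, MRPL46 at 5.66 and MRPS31 at 6.52. MRPL1 belongs to the stalk past which deacylated tRNA leaves the ribosome. In the annotation, the longest transcript of MRPL42 has 15582 bases, against a median of 1722 over the members. Its row covers 9 transcripts, the shortest of 567 bases. FPKM depend on the length assigned to a gene, which the sources used here do not give. The part of length in the level of MRPL42 was not tested. The members as a whole were well above the typical gene: their median level was 22.6 FPKM, compared with 5.31 over all genes tested. There were 12 members under 10 FPKM, 51 between 10 and 50, 10 between 50 and 100, and 5 above 100.

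Proteins of one particle did not have mRNAs of one level. The median was 23.4 FPKM for the large subunit and 21.4 for the small subunit. Members with a bacterial counterpart had a median of 27.8 FPKM (46 genes), and those found only in mitochondria had 20.2 (31 genes). Both kinds held genes from the top and the bottom of the range.

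The balance between the subunits varied little between libraries. The summed FPKM of the large-subunit genes was 2.37, 2.37 and 2.40 times that of the small-subunit genes in S34F replicates 1 to 3 and 2.38, 2.41 and 2.46 times in the WT libraries. The sum over all 78 members was 3099, 3010 and 2540 FPKM with S34F and 2792, 2786 and 2675 with WT. The lowest and the highest library were thus both S34F libraries, and the groups overlapped. The means were 2883 ± 300.05 and 2751 ± 65.8 FPKM (SD, n = 3), and the difference was within the spread between libraries (exact two-sided permutation test, p = 0.5, the smallest possible being 0.1). These sums made up between 0.756% and 0.907% of all FPKM. In bulk RNA, a change in the number of cells of a kind and a change in RNA per cell cannot be told apart.

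Within a gene, the libraries were close. The highest library was less than 1.5 times the lowest in 56 of 78 members, and the median coefficient of variation over the 6 libraries was 10.96%, against 15.4% over all genes tested. The members also had a higher median level (22.6 against 5.31 FPKM). Genes of matched level were not compared, so this difference cannot be read as a trait of the family. MRPL45, a protein at the tunnel exit of the large subunit that binds the inner membrane, had the smallest range, between 40.7 and 43.1 FPKM. The ratio exceeded 2 in 6 members, MRPL30, MRPS27, MRPL37, MRPL4, MRPL12 and MRPL19.

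The genes lie on 21 chromosomes. The median GC content of their longest transcripts was 47.7%, with a range of 33.5% to 71.9%, beside 49.9% for the genes tested. Named pseudogenes exist for 34 members, 38 overlap a gene on the opposite strand and 13 overlap a coding gene on the same strand, so reads may have been shared there; the strand setting of the counting is not given in the sources used here.

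Promoter windows from RefSeq (GRCh38.p14, 250 bases before to 50 after the start of a gene) were found for 70 members and searched on both strands for short motifs of factors known to act on nuclear genes of mitochondrial proteins. The letters AAGATGGCG, which contain the core read by YY1, stood in 13 of 70 member windows (18.6%), in 5.52% of the windows of genes tested and in 2.14% of all windows. CCGGAAGT, read by ETS factors such as GABP, stood in 12 (17.1%, beside 11.9% of genes tested and 4.95% of all), and the NRF1 letters GCGCATGCG in 3 (4.29%, beside 4.81% and 2.34%). At least 1 of these 3 was present in 25 member windows (35.7%), compared with 20.6% of genes tested and 8.77% of all. GGGCGGG of the SP family was found in 51.4% of member windows, 62.6% of genes tested and 36.7% of all. The shares of CCAAT (32.9%, 43.7% and 39.7%) and of TATAAA (5.71%, 7.04% and 13.99%) were lower among the members than among all genes.

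The AAGATGGCG matches had a common place. In 10 of the 13 genes it began at or after the transcription start, at most 35 bases into the transcript, and in 9 the ATG inside it was the annotated start codon. There the letters are also part of the coding sequence, and a match shows no binding. The windows below show 6 of the 9, with the motif in capitals, on the strand of the gene.
MRPS10 (chr6:42217833-42217862, minus strand): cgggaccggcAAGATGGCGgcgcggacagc
MRPS18A (chr6:43687763-43687792, minus strand): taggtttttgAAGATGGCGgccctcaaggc
MRPS18B (chr6:30617853-30617882, plus strand): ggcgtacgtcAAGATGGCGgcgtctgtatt
MRPS24 (chr7:43869479-43869508, minus strand): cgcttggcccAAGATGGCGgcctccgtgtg
MRPS30 (chr5:44808950-44808979, plus strand): atcgcgggcaAAGATGGCGgcggccaggtg
MRPL38 (chr17:75904859-75904888, minus strand): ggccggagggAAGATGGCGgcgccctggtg

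For comparison, the NRF1 letters of MRPL17 and the ETS letters of MRPL27 and MRPL3 lay before the transcription start.
MRPL17 (chr11:6683364-6683393, minus strand): ccgagctaagGCGCATGCGttccctgaaat
MRPL27 (chr17:50373174-50373203, minus strand): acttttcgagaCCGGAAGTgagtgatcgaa
MRPL3 (chr3:131502985-131503014, minus strand): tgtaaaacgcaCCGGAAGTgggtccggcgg

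Members with AAGATGGCG had a median of 19.1 FPKM and a median log2 fold change of 0.08 (13 genes), and those without had 28.0 FPKM and 0.04 (57 genes). No match to the YY1, ETS or NRF1 letters was found in the window of MRPL30, described next.

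The comparison of S34F with WT asks whether the mutant splicing factor changed the mRNA of mitochondrial ribosomal proteins relative to the WT libraries. One member stood out. MRPL30, a large-subunit protein with a bacterial counterpart, was 2.25-fold higher with S34F, while the other 77 members had log2 fold changes between -0.23 and 0.60 on the log2(FPKM + 1) scale. In limma's moderated test with Benjamini-Hochberg adjustment over all 10942 genes, 0 members had an adjusted p under 0.05, which was also the share over all genes (0%). At an unadjusted p under 0.05, there was 1 member, MRPL30, of 78, beside 2.39% of all genes tested.

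The MRPL30 mRNA was at 21.3, 21.5 and 16.2 FPKM in S34F replicates 1 to 3 and at 8.95, 8.99 and 8.25 in the WT libraries. Every S34F library was above every WT library, with a wide gap between the groups. The means were 19.7 ± 3.03 and 8.73 ± 0.412 FPKM (SD, n = 3), the log2 fold change was 1.08 (SE 0.14), and limma gave an adjusted p of 0.488. The exact two-sided permutation test gave 0.1, the smallest value that 3 against 3 allow. Ranked by limma's p-value, MRPL30 came in 2nd place among 10942 genes. It moved from place 66 of 78 members by level in WT to place 47 with S34F.

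MRPL30 (ENSG00000185414) lies on the plus strand of chromosome 2, from 99181079 to 99197626 in GRCh38, and its deposited row covers 5 transcripts of 562 to 2605 bases. Of these, 2 are annotated as coding, 1 as a target of nonsense-mediated decay and 2 as processed transcripts without a coding sequence, and the gene-level FPKM do not separate them. A change in the mix of short and long transcripts would also move a gene's FPKM, and its part in the difference was not tested.

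The annotation places 2 readthrough genes across MRPL30 on the same strand. AC079447.1, with 5 exons inside MRPL30, was at 0.0686, 0.00737 and 0.0938 FPKM with S34F and 0.171, 0.279 and 0.118 with WT. It was thus lower in all S34F libraries than in all WT libraries (exact permutation p = 0.1), the opposite direction to MRPL30, although at a level under 1 FPKM. AC092587.1, with 4 exons inside MRPL30, did not exceed 0.475 FPKM and was listed at 0 in 1 library of each group.

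Of the neighbouring genes without overlap, 4 passed the filter and were tested. MITD1, which acts in the last step of cell division and starts from the opposite strand 21 bases away, was at 2.34, 2.37 and 3.60 FPKM with S34F and 2.72, 3.18 and 2.72 with WT (log2 fold change -0.05, SE 0.15). LIPT1, a lipoyl transferase, had a log2 fold change of 0.13 (SE 0.26). TXNDC9, a thioredoxin-like protein, had 0.12 (SE 0.12), and EIF5B, a cytosolic translation initiation factor, had 0.02 (SE 0.17). None of these 4 genes had groups that did not overlap, and none had an unadjusted limma p under 0.05.

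The genes whose log2(FPKM + 1) followed MRPL30 most closely over the 6 libraries were VPS26C (Pearson's r 0.987), ARL15 (0.976), AL049840 (0.973), ALG6 (0.968) and AL110504 (0.967). With 6 libraries in 2 groups and 10942 genes, such values mostly describe genes with the same order of libraries. ARL15, a small GTPase of the ARF family, had means of 6.05 and 2.197 FPKM, and VPS26C, a part of an endosomal sorting complex, had 5.202 and 3.198. Among the members, the closest were MRPL58 (0.777), MRPS27 (0.747) and MRPL39 (0.738). MRPL58 is a peptidyl-tRNA hydrolase that is also built into the large subunit.

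MRPS27, a small-subunit protein found only in mitochondria, came second in size. Its FPKM were 18.0, 14.7 and 6.73 with S34F and 8.60, 8.98 and 5.90 with WT. S34F replicates 1 and 2 were above all WT libraries, and S34F replicate 3 was within their range. The log2 fold change was 0.60 (SE 0.34), with an exact permutation p of 0.3. In the fit that paired libraries by number (replicate block), the SE was 0.18 and MRPS27 joined MRPL30 with an unadjusted limma p under 0.05, so that 2 of 78 members were called, beside 4.05% of all genes. Without S34F replicate 3 the log2 fold change was 0.99 (SE 0.19, limma's adjusted p = 0.252). Its row covers 14 transcripts of 127 to 4435 bases.

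MRPS31, also of the small subunit, was the other member whose groups did not overlap. It was at 6.62, 6.62 and 7.70 FPKM with S34F and 6.02, 5.93 and 6.21 with WT, a log2 fold change of 0.18 (SE 0.10, exact permutation p = 0.1). The gene has 4 named pseudogenes, so reads can be assigned to a copy. In all, 2 members were higher in every S34F library than in every WT library, beside 3.66% of all genes tested, and 0 were lower in every one, beside 3.73%.

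The remaining largest positive differences did not pass the test. MRPS35, a small-subunit protein found only in mitochondria, was at 36.1, 42.8 and 36.3 FPKM with S34F and 38.2, 25.7 and 36.2 with WT (log2 fold change 0.21, SE 0.17), and WT replicate 2 was the lowest of the 6 libraries. MRPS2, whose bacterial counterpart binds late in small-subunit assembly, was at 42.1, 41.1 and 25.3 FPKM with S34F and 35.95, 30.6 and 27.1 with WT (0.18, SE 0.22). S34F replicate 3 was the lowest of all 6 libraries for this gene.

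Among the negative differences, MRPL19 had the largest, at 1.15, 3.67 and 1.83 FPKM with S34F and 2.94, 2.84 and 2.05 with WT (log2 fold change -0.23, SE 0.28). Its S34F libraries enclosed the WT range, so no direction can be read from it. MRPL10, the base of the stalk that MRPL12 joins, had -0.16 (SE 0.14), with WT replicate 2 at 20.6 FPKM and the other 5 libraries between 14.3 and 15.1. MRPS6, whose bacterial counterpart lies on the small-subunit platform, had -0.16 (SE 0.12), MRPL24 -0.13 (SE 0.15) and MRPL49 -0.12 (SE 0.26). MRPL49, at 51.1, 29.3 and 57.8 FPKM with S34F and 48.4, 41.2 and 56.6 with WT, was low in both libraries numbered 2, and it shares ground with SYVN1 and with the highly expressed FAU on the opposite strand.

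The members together lay slightly above 0. The log2 fold change was positive in 56 of 78 (71.8%), compared with 54.6% of all genes tested, with a median of 0.05 against 0.01. In 74 of 78 (94.9%) it was within 0.2 of 0, which held for 83.1% of all genes, without matching for level. By class, positive values were found in 35 of 51 large-subunit genes (median 0.05) and 21 of 26 small-subunit genes (median 0.06). Small-subunit genes found only in mitochondria had the highest class median, 0.09, with 8 of 10 positive, and large-subunit genes with a bacterial counterpart had 0.04, with 19 of 30.

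**Figure D1:**
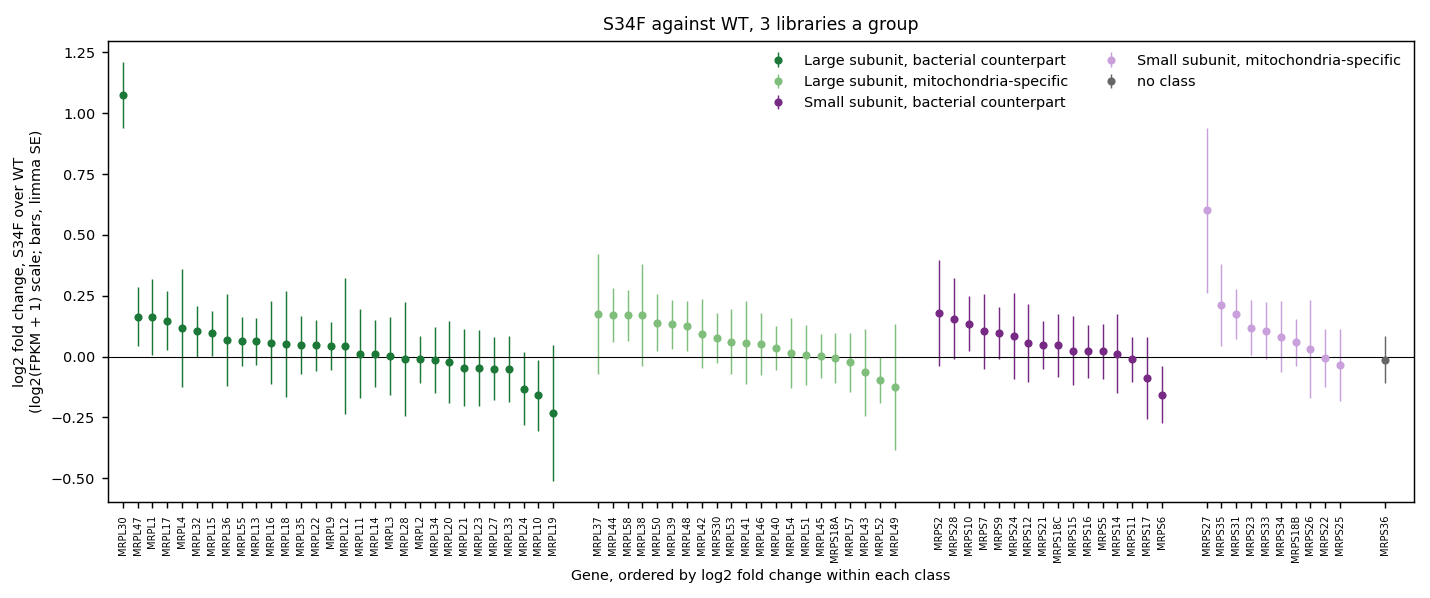
Log2 fold change of S34F over WT on the log2(FPKM + 1) scale with limma's SE (bars) for all 78 members, ordered by value within 4 classes and MRPS36. MRPL30 at 1.08 is the only member whose unadjusted p was under 0.05, MRPS27 at 0.60 has a wide bar, and the others are between -0.23 and 0.21.

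S34F replicate 3 differed from the other S34F libraries in much of the family. It was the lowest S34F library in 52 of 78 members (66.7%) and the highest in 15 (19.2%), while over all genes tested these shares were 43.5% and 43.9%. MRPL12 was at 157, 152 and 75.5 FPKM with S34F and 127, 123 and 105 with WT. MRPL41 was at 226, 222 and 149 FPKM with S34F and 196, 187 and 181 with WT. In both, S34F replicates 1 and 2 were above all WT libraries and replicate 3 below all of them. MRPL18, whose bacterial counterpart binds a small ribosomal RNA and which was chosen after its values were seen, went the other way, with 70.6, 74.5 and 115 FPKM with S34F and 74.4, 73.5 and 99.5 with WT.

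WT replicate 3 was likewise the lowest WT library in 50 members (64.1%), beside 50.2% of all genes. Between libraries of the same number, 55 members were higher with S34F in pair 1, 60 in pair 2 and 34 in pair 3, whereas the shares over all genes tested were 50.2%, 47.1% and 56.2%. The positive lean of the family was thus present in pairs 1 and 2 and absent in pair 3.

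Without S34F replicate 3, 13 members (16.7%) had an unadjusted p under 0.05, all higher with S34F, beside 10.6% of all genes tested. WT replicate 3, often the lowest WT library, stayed in this fit, and no fit left out both libraries numbered 3. They were MRPL30, MRPS27, MRPL12, MRPL41, MRPS7, MRPL38, MRPS2, MRPS34, MRPL37, MRPL16, MRPS12, MRPL28 and MRPS26. The lowest adjusted p among them in limma was 0.0863, for MRPL30. The median log2 fold change became 0.12, against 0.01 over all genes, and 66 of 78 were positive. Between libraries of the same number, the median log2 difference of the members was 0.08 in pair 1 and 0.07 in pair 2. In 32 members, S34F replicates 1 and 2 were both above all WT libraries, beside 18.2% of all genes, and in 4 both were below, beside 15.6%. Leaving out S34F replicate 1 or 2 instead gave 1 and 2 members. The shares over all genes were not taken for those fits, so these counts cannot be set against the 13.

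GC content moved with this library. Of the 39 members above the median GC content, S34F replicate 3 was the lowest S34F library in 33, and of the 39 at or below it, in 19. Over the 78 members, the deviation of S34F replicate 3 from its group mean had a Pearson correlation of -0.52 with GC content, and that of S34F replicate 1 had 0.55. Deviations within a group sum to 0, so these values are not independent. The WT libraries lay between -0.12 and 0.14, and over all genes tested S34F replicates 1 and 3 had 0.21 and -0.21. Of the 13 members named above, 11 were above the median GC content; MRPL30 (43.2%) and MRPS27 (43.3%) were below it. The summed monocytic markers also moved with it, at 12.8, 13.6 and 29.9 FPKM with S34F and 23.6 to 25.7 with WT. Most of this sum was LYZ, at 8.52, 8.82 and 23.2 FPKM with S34F and 16.96 to 18.83 with WT. The other tested monocytic markers were lower in every S34F library, replicate 3 included, beside 3.73% of all genes tested. Both had an unadjusted limma p under 0.05, beside 2.39%. Markers of the list under a mean of 1 FPKM were not tested and went in both directions. CD14 (means 0.490 and 0.290 FPKM with S34F and WT) and S100A9 (0.240 and 0.129) were higher, and CSF1R (0.0191 and 0.0274) was lower. ITGAM was at 1.48, 1.70 and 2.25 FPKM with S34F and 3.43, 3.30 and 2.35 with WT (log2 fold change -0.52, SE 0.16), and CD33 was at 1.80, 1.84 and 2.52 FPKM with S34F and 2.62, 2.61 and 3.26 with WT (-0.33, SE 0.14). The summed erythroid markers were 13963, 13839 and 12198 FPKM with S34F and 11784 to 12911 with WT. The part of GC content and of these markers in the difference was not tested.

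The rest of the mitochondrial translation machinery was listed by function. Among 5 subunits of the mitochondrial ribosome with other names, 20 assembly factors, 17 translation factors, 22 tRNA synthetases and related enzymes and 4 genes of mitochondrial transcription that passed the filter, 0 had an unadjusted p under 0.05 in limma, and 0 had an adjusted one, with 2.39% of all genes at an unadjusted p under 0.05. Positive log2 fold changes were found in 5 of 5 of the subunits (median 0.07), 11 of 20 assembly factors (0.01), 13 of 17 translation factors (0.09), 11 of 22 synthetases (0.01) and 4 of 4 transcription genes (0.11). TUFM, the elongation factor that delivers aminoacyl-tRNA, had the highest level of them. It was at 325, 310.5 and 197 FPKM with S34F and 289, 283 and 253 with WT, the same low S34F replicate 3 as in MRPL12.

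Of the 68 tested genes in these lists, 3 were higher in every S34F library (4.41%, beside 3.66% of all genes) and 1 was lower (1.47%, beside 3.73%), shares near or below the background; they are named after their values were seen. DAP3, a GTP-binding subunit of the small subunit, was at 31.5, 32.1 and 32.2 FPKM with S34F and 30.2, 31.3 and 30.3 with WT. METTL17, an assembly factor of the small subunit, was at 12.5, 11.5 and 10.4 FPKM with S34F and 9.92, 10.1 and 9.74 with WT (log2 fold change 0.19, SE 0.11). SLIRP, which stabilises mitochondrial mRNAs, was higher in every S34F library at means of 13.3 and 12.4 FPKM, and GATC, a subunit of the enzyme that forms glutaminyl-tRNA, was lower in every one at 14.6 and 15.9 FPKM. Without S34F replicate 3, 8 of these 68 genes (11.8%, beside 10.6% of all genes) had an unadjusted p under 0.05, a share near the background. All 8 were higher with S34F, among them POLRMT, the mitochondrial RNA polymerase (log2 fold change 0.25), and GADD45GIP1, a protein of the large subunit (0.31).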

How the data were processed

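RNA of 6 libraries labelled SKM-1 was sequenced, and the authors deposited gene-level FPKM, with StringTie and edgeR named in the submitters' processing notes. The aligner, genome build and annotation are not given in the sources used here. Every value above 0 was not whole (100%), so the values were treated as FPKM and no count model was used. Columns with the authors' own fold changes, p-values and q-values were not used. Genes with a mean of at least 1 FPKM (10942 of 31142) were tested on log2(FPKM + 1) with limma 3.58.1 (R 4.3.3; variance trend, Benjamini-Hochberg), after a check on simulated data. Tables were made with Python 3.11.15, pandas 2.3.3 and scipy 1.17.1. Single values were tested by an exact permutation test over samples. Positions, strands and base composition were read from the GENCODE annotation of GRCh38, which held 31002 of the identifiers, and promoter windows from RefSeq.

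The members and lists were chosen with earlier results of these data known. Named members were those with an unadjusted p under 0.05, the 5 largest rises and falls, the 5 highest and lowest levels and the 5 most variable, with the 5 genes most like the top riser and any listed gene with an unadjusted p under 0.05; any other gene was chosen after its values were seen. Replicate numbers paired the libraries only in the replicate block and in the comparisons by number, and the main fit did not use them. Deviations from the group mean correlated at 0.21, 0.17 and 0.38 within numbers 1, 2 and 3 over the genes tested. S34F replicate 2 correlated more with WT replicate 1 (0.20) than with WT replicate 2 (0.17), so the pairing is uncertain. The study speaks of pairs of samples, but the labels do not state what a number marks. Alternatives were another pseudocount, other filters and scalings, no variance trend, a replicate block and leaving out each library. Read counts were not used here, so precision rests on the spread between 3 libraries a group, and depth was only inferred from the steps between low values.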

Additional observations from a re-analysis of the deposited data

How the results depend on the processing

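The count of members with an unadjusted p under 0.05 was 1 and became 2 with the replicate block (MRPL30 and MRPS27). Leaving out 1 library at a time gave 1 to 13, with 2 without S34F replicate 2 (MRPL30 and MRPL19) and 13 without S34F replicate 3. The shares over all genes were 2.39% in the main fit, 4.05% with the block and 10.6% without S34F replicate 3. They were not taken for the other fits. The count of members whose groups did not overlap was 2, and 3 under median-ratio scaling and under quantile normalization. With 1 library left out it was 6 to 36, with 36 without S34F replicate 3. Of these 36, 32 were higher and 4 lower with S34F, beside 18.2% and 15.6% of all genes tested. Fewer samples make such a pattern easier. The shares over all genes under these scalings or with any other library left out were not taken, so those counts cannot be read as a result about the members. The cause of the other changes was not tested. Among the other mitochondrial translation genes the count was 0, and 1 under quantile normalization, 1 with the replicate block (MTERF4) and 0 to 8 with 1 library left out, again highest without S34F replicate 3. With 1 library left out, that of MRPL19 ran from -0.54 to 0.021 (positive without S34F replicate 1), that of MRPL24 from -0.22 to 0.0033 (positive without S34F replicate 3) and that of MRPL49 from -0.31 to 0.17 (positive without S34F replicate 2), all as log2 fold changes. MRPL30 kept values of 1.01 to 1.204 and an unadjusted p under 0.05 in all 13 alternatives run. The median log2 fold change of the members stayed above 0 in all of them, from 0.0022 without S34F replicate 1 to 0.12. The adjusted count was 0 in each. The replicate block changed no other call among the members. Gene-level FPKM limit what can be said of transcripts.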

Other observations

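Apart from the 78 members, 21 rows carry a name built on a mitochondrial ribosomal protein gene, 18 of them pseudogenes. Only 3 of the 21 reached a mean of 1 FPKM. MRPL20-AS1, an antisense gene of MRPL20, was at 3.46 to 4.43 FPKM over the 6 libraries (log2 fold change 0.05, SE 0.12). MRPL45P2 was at 2.65 to 3.79 FPKM (-0.09, SE 0.14), beside the steady 40.7 to 43.1 FPKM of MRPL45. MRPS31P4 was at 0.828 to 1.79 FPKM (-0.01, SE 0.20), beside 5.93 to 7.70 for MRPS31, and its groups overlapped.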
